A study of Mus musculus with 1824 samples.

Results

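The GATA factors are zinc finger transcription factors named after the short DNA motif that they bind. The mouse genome holds 6 of them, Gata1 to Gata6, and all 6 were found by gene symbol among the 55487 genes counted here. Their RNA was followed in single cells of mouse chimaeras, embryos in which injected knockout cells and host cells develop together. The knockout cells were embryonic stem cells lacking all TET enzymes (Tet-TKO), which oxidise methylated cytosine, and they carried an H2B-tdTomato reporter driven from the CAG promoter. They had been placed into C57BL/6J blastocysts and carried by CD1 recipients. Labels give CD1 as the strain of every cell, and name neither genotype nor sort gate for a single cell. The labels therefore do not give the share of knockout cells in each group, and knockout cells were not compared with host cells. In its other single-cell RNA data from such chimaeras, the study found no injected cells in extraembryonic ectoderm, the trophoblast lineage. Groups of cells may thus differ in genotype as well as in cell type, which was not tested. The 11 plates of E7.5 cells (embryonic day 7.5) hold 4 numbered embryos (1, 2, 4 and 5), 1 plate labelled only as chimera, and 6 named by plate and sequencing lane (below, lane plates). The 8 plates of E8.5 cells carry no animal name. Sorting used staining for KDR and CD41, surface proteins of vessel and blood precursors, so shares of cells describe the sorted wells and not the embryo.

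Of 1824 wells, 1649 (90.4%) held at least 100000 reads and were kept. Median depth per plate ran from 224956 reads on lane plate 5 to 1699478.5 on lane plate 3. A member counted as detected in a cell at 10 reads per 1000000 (CPM) or more. Pooled CPM is the member's reads over all reads of a group of cells. It cannot tell apart a smaller share of cells with the transcript from less transcript per cell, so the share of cells with detection is given with it. Pooled levels of different members were compared only per kilobase of exon (RPKM). Shares of detection and the highest values in single cells rest on CPM. They are not corrected for exon length, which runs from 2.438 kilobases for Gata1 to 6.508 for Gata6.

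Gata1, Gata2 and Gata3 are known as the haematopoietic branch of the family. Gata2 acts in haemogenic endothelium and blood progenitors, Gata1 drives red cell and megakaryocyte genes, and Gata3 is best known in T cells and trophoblast. Gata4, Gata5 and Gata6 form the other branch, which acts in endoderm and heart. In the textbook account of erythropoiesis GATA1 takes the place of GATA2 on shared target sites and the Gata2 gene is shut off, an exchange called the GATA switch.

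In GRCm38 coordinates, Gata1 lies on chromosome X from 7959260 to 7978071 on the minus strand. Gata2 lies on chromosome 6 from 88193891 to 88207032 on the plus strand. Gata3 (9857078 to 9890034) and Gata5 (180325133 to 180334699) both lie on the minus strand of chromosome 2. Gata4 lies on chromosome 14 from 63198922 to 63271692 on the minus strand. No annotated gene overlapped Gata1, Gata2 or Gata4. Gata3 overlapped 3 transcripts, 2 of which held 25 and 32 reads against its own 32149. The gene 1010001N08Rik, which overlaps Gata6, held 2023 against 30264, and Gata5os overlaps Gata5. Whether counting used the strand is not given in the sources used here, so small parts of these values are uncertain.

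The promoters of the exchanging pair, Gata1 and Gata2, are shown because TET enzymes act on methylated CG dinucleotides. The study itself placed TET-dependent loss of methylation at distal regulatory elements and saw negligible change at promoters. Each window holds 250 bases before the RefSeq start site and 50 after it, read 5′ to 3′ on the gene's strand, with CG dinucleotides in capitals. The Gata1 window is chrX:7967861-7968160 (minus strand), and those of the Gata2 start sites are chr6:88193641-88193940 and chr6:88198414-88198713 (plus strand), all GRCm38.p6.
Gata1: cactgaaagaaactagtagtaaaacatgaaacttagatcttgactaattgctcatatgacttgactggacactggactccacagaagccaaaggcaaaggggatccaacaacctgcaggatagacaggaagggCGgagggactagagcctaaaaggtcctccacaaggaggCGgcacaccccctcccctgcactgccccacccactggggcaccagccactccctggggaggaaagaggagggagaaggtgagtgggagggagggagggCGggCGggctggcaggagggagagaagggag
Gata2 start 1: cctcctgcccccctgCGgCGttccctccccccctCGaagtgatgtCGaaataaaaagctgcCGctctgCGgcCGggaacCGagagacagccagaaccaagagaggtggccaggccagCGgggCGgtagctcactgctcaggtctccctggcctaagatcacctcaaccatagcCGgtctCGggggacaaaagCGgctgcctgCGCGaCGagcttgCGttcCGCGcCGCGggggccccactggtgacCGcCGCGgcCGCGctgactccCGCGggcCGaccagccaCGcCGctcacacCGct
Gata2 start 2: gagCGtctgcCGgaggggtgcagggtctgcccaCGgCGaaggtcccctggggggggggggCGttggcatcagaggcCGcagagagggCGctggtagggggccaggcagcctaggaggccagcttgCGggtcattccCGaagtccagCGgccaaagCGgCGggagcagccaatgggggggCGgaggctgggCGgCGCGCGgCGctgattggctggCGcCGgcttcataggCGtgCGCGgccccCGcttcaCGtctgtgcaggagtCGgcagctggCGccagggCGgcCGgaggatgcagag
The Gata1 window held 4 CG dinucleotides and the Gata2 windows 32 and 29, beside a median of 7 over 32817 RefSeq promoters of that length. The GATA motif was searched as AGATAA, as AGATAG, as TGATAA and as TGATAG, on both strands. It occurred 0 times in the 3 windows, and 29.8% of all promoters held at least 1 such match. Of the 6 members, 4 matched the promoter table (Gata1, Gata2, Gata3 and Gata5). Methylation was not analysed here.

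Across all kept cells, detection was of like frequency for Gata3 (30.8% of cells), Gata6 (30.6%), Gata2 (27.96%), Gata4 (25.7%) and Gata1 (22.3%), and rare for Gata5 (60 cells, 3.64%). Per length, Gata1 had the highest pooled level at 26.9 RPKM. Gata4 followed with 8.82 RPKM, Gata3 with 6.004, Gata2 with 3.86, Gata6 with 3.46 and Gata5 with 0.981. The highest value in a single cell was 1096 CPM for Gata1 and between 465.2 and 787.99 CPM for each of the other 5. At least 1 member was detected in 1300 cells (78.8%), and 21.2% of cells showed none. Detection of a single member was the commonest state (590 cells), while 710 cells (43.1%) held 2 or more and 0 cells held all 6.

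Gata1 was concentrated on 4 plates, E8.5 plates 2, 1 and 5 (350.96, 281.1 and 216.3 CPM) and E7.5 lane plate 1 (184.4 CPM). E8.5 plate 6 held 41.04 CPM, and the other 14 plates held 20.5 CPM or less. On E8.5 plate 4 Gata1 was found in 0 of 82 cells and no read was counted, which allows a share of up to 3.66% of cells. Gata2 was spread more widely, with the lowest value at 2.28 CPM on E8.5 plate 7 and the highest on E8.5 plate 3. Lane plate 2 led the E7.5 plates for both Gata2 (58.6 CPM) and Gata3 (53.99 CPM).

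Gata4 was high in the numbered embryos, at 54.1, 52.4, 80.7 and 82.6 CPM in embryos 1, 2, 4 and 5, and lowest on E8.5 plates 5 and 2 (0.37 and 0.39 CPM), both rich in Gata1. Gata6 showed the same low points on those plates, at 0.19 and 0.02 CPM. It reached 47.3 CPM on the E7.5 chimera plate. Gata5 was highest on E8.5 plates 8 (18.5 CPM) and 7 (13.9 CPM), and no other plate passed 5.30 CPM. Within a stage log2(CPM + 1) of the plates had an SD between 1.28 for Gata5 and 3.05 for Gata1. The log2 ratio of E8.5 over E7.5, over all cells of each stage, was 1.94 for Gata1, 1.14 for Gata5 and between -0.95 and 0.58 for the other 4. Lane plate 1 held most of the E7.5 Gata1, and without it the Gata1 ratio was 4.10. Without E8.5 plate 8 the Gata5 ratio was 0.52. No stage test was made, since the E8.5 labels name no animal.

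**Figure D1:**
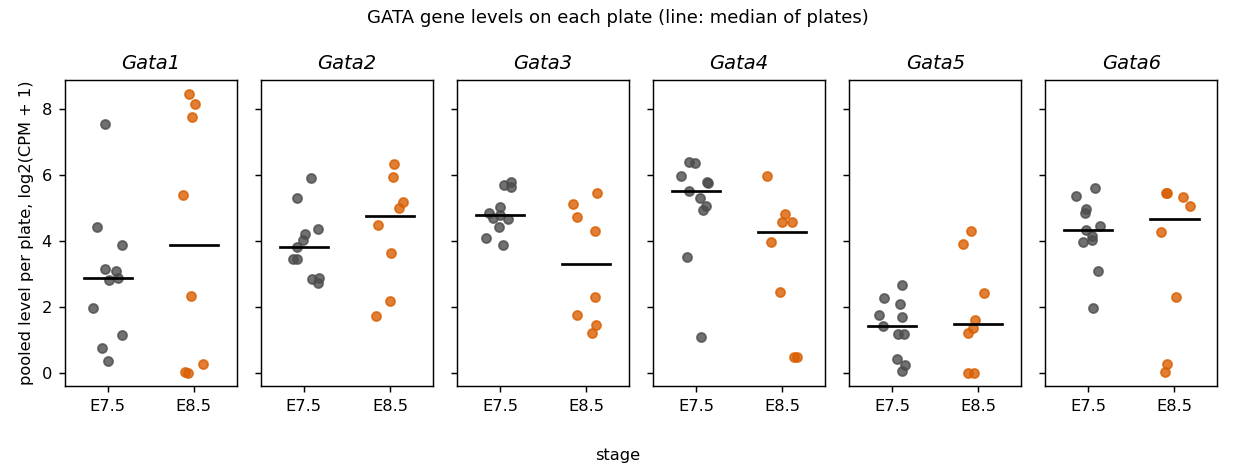
Pooled level of each GATA member, as log2(CPM + 1), on the 19 plates by stage (x axis, 11 at E7.5 and 8 at E8.5), with 1 point for each plate and a line at the median of plates. Gata1 is above 180 CPM on 4 plates and at or under 41.04 CPM on the other 15, and Gata5 passes 10 CPM on E8.5 plates 7 and 8 alone.

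To place the members in cell types, cells were scored with 15 marker panels of 6 genes, none of them a GATA gene, and a cell was positive with at least 4 panel genes at 10 CPM. The panels are not exclusive, since a cell could be positive for several, and 19.5% of cells were positive for none. The vessel and blood panels overlapped most. Of the cells positive for the endothelial panel (23.1% of all), 96.3% were also positive for the haemangioblast panel, as were 93 of the 98 cells positive for the megakaryocyte panel. Of the 49 cells positive for the myeloid panel, 43 (87.8%) were also endothelial-panel positive, so these sets mostly do not stand for separate cells. Their part in the values below was not tested.

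Gata1 was close to universal in cells positive for the primitive erythroid panel, of which all but 6 of 230 detected it (97.4%, 95% interval 94.4 to 99.04). The pooled level there was 336.9 CPM, and 311.6 to 537.1 CPM over the 4 plates with at least 5 such cells. All 6 cells without it were also positive for another panel, and 4 of them lay on E8.5 plate 1. All cells positive for the erythroid panel alone held Gata1 (100%, 97.1 to 100). Megakaryocyte-panel cells followed with 193.3 CPM and 68.4% detection (94.2 to 363.4 CPM over 4 plates), a range that overlaps the erythroid one. The level in endothelial-panel cells was 33.2 CPM, between 0 and 148.1 CPM over 8 plates. In epiblast-panel and nascent-mesoderm-panel cells Gata1 was near absent at 0.237 and 0.386 CPM, with 0.909% and 0.901% of cells detecting it.

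Gata2 was highest in cells positive for the endothelial panel, at 52.9 CPM with detection in 57.5% of cells (52.3 to 62.5). Haemangioblast-panel cells (45.1 CPM), myeloid-panel cells (44.5 CPM) and extraembryonic-ectoderm-panel cells (43.6 CPM) came next. These values do not differ beyond their plate ranges, since the endothelial plates alone ran from 32.4 to 92.3 CPM. Erythroid-panel cells kept 10.2 CPM and 25.7% detection, and epiblast-panel cells 2.63 CPM and 8.64%.

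Gata3 had its maximum outside blood. In extraembryonic-ectoderm-panel cells, the trophoblast lineage, 69 of 75 cells detected it (92%, 83.4 to 97.01) at 84.6 CPM, with 67.2 and 84.1 CPM on the 2 plates that held at least 5 such cells. Surface-ectoderm-panel cells (59.6 CPM, 14 of 22 cells) and allantois-panel cells (54.3 CPM, 33 of 49) followed. The allantois plates ranged from 28.02 to 73.1 CPM, so the order among these 3 sets is within the plate spread. Erythroid-panel cells held 0.397 CPM, with detection in 3 of 230.

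Extraembryonic-ectoderm-panel cells also detected Gata1 and Gata2. Gata1 was found in 39 of 75 cells (52%, 40.2 to 63.7) at 31.4 CPM, in 22 of 35 cells of embryo 4 (42.7 CPM) and 13 of 30 cells of embryo 5 (23.01 CPM). The share was 21.3% at a limit of 50 CPM and 78.3% when 5 panel genes were asked for. In the 39 cells with Gata1 its level was 60.7 CPM, while the 7 globins summed to 2.22 CPM, the erythroid factor Klf1 stood at 0.391 CPM, and Tal1 had 0 reads. Zfpm1, the GATA1 partner also called FOG1, was at 13.9 CPM in these cells and 11.3 CPM in the 36 cells without Gata1. In those without it globins and Klf1 stood at 3.33 and 0.731 CPM, and the order of the values differed between embryos. Klf1 was at 0.281 CPM in the cells with Gata1 against 1.66 CPM in embryo 4, and at 0.665 against 0.227 CPM in embryo 5. Globins were at 0.0703 and 0.266 CPM in the cells with Gata1 of these embryos and at 0 in those without. All these levels lay below the 10 CPM limit. Gata3 was detected beside Gata1 in 35 cells and beside Gata2 in 31, and Gata1 beside Gata2 in 20.

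In extraembryonic-endoderm-panel cells part of the Gata1 signal came with erythroid RNA. Of 60 such cells, 10 detected Gata1, and 8 of the 60 were also positive for the erythroid panel, all on E8.5 plate 1. Globins in those 8 ranged from 47.8 to 303038 CPM, and 4 of them held Gata1. Of the other 52 cells, 6 held Gata1 (11.5%, 4.35 to 23.4). No doublet caller was run, and the part of mixed wells in these values was not tested.

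Gata4 was led by cells positive for the cardiac panel, at 252.9 CPM with 13 of 20 cells detecting it, and 138.2 and 305.8 CPM on the 2 plates with at least 5 such cells. Extraembryonic-endoderm-panel cells, where Gata4 is a long-known factor, held 147.6 CPM and 78.3% detection (47 of 60 cells). Their 4 plates ran from 35.8 to 390.7 CPM, overlapping the cardiac values. Definitive-endoderm-panel cells (92.1 CPM), allantois-panel cells (75.3 CPM) and nascent-mesoderm-panel cells (67.9 CPM) followed within overlapping plate ranges. Epiblast-panel cells held 14.8 CPM and 17.7% detection.

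Gata5, a factor of the heart field and its endocardium, was found in the fewest cells. Cardiac-panel cells held 84.4 CPM with 11 of 20 cells detecting it (55.1 and 135.9 CPM on 2 plates). Allantois-panel cells held 29.5 CPM (12 of 49 cells) and surface-ectoderm-panel cells 14.6 CPM (3 of 22). None of the other 12 panels passed 1.74 CPM. Of the 60 cells with Gata5, 24 were positive for no panel, at 3.88 CPM and 7.48% detection over such cells. In nascent-mesoderm-panel cells no cell detected it, which allows a share of up to 1.35%.

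Gata6 lies in GRCm38 on chromosome 18 from 11052064 to 11085635, on the plus strand. It had its highest levels in cardiac-panel cells (82.2 CPM, 15 of 20 cells) and definitive-endoderm-panel cells (77.3 CPM, 42 of 53 cells, 79.2%). The definitive endoderm plates ranged from 10.8 to 169.3 CPM, so these 2 sets do not differ beyond the spread. Allantois-panel cells held 61.3 CPM and nascent-mesoderm-panel cells 49.7 CPM. In extraembryonic-endoderm-panel cells Gata6 was at 20.2 CPM and 50% detection. In extraembryonic-ectoderm-panel cells it was seen in 0 of 75 cells at the 10 CPM limit.

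Neural-ectoderm-panel cells, 10 in all, stood at 1.01 CPM or less for every member. A cell held a mean of 2.61 members in the allantois panel, 2.25 in the cardiac panel, 1.93 in the extraembryonic ectoderm panel and 0.609 in the epiblast panel.

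**Figure D2:**
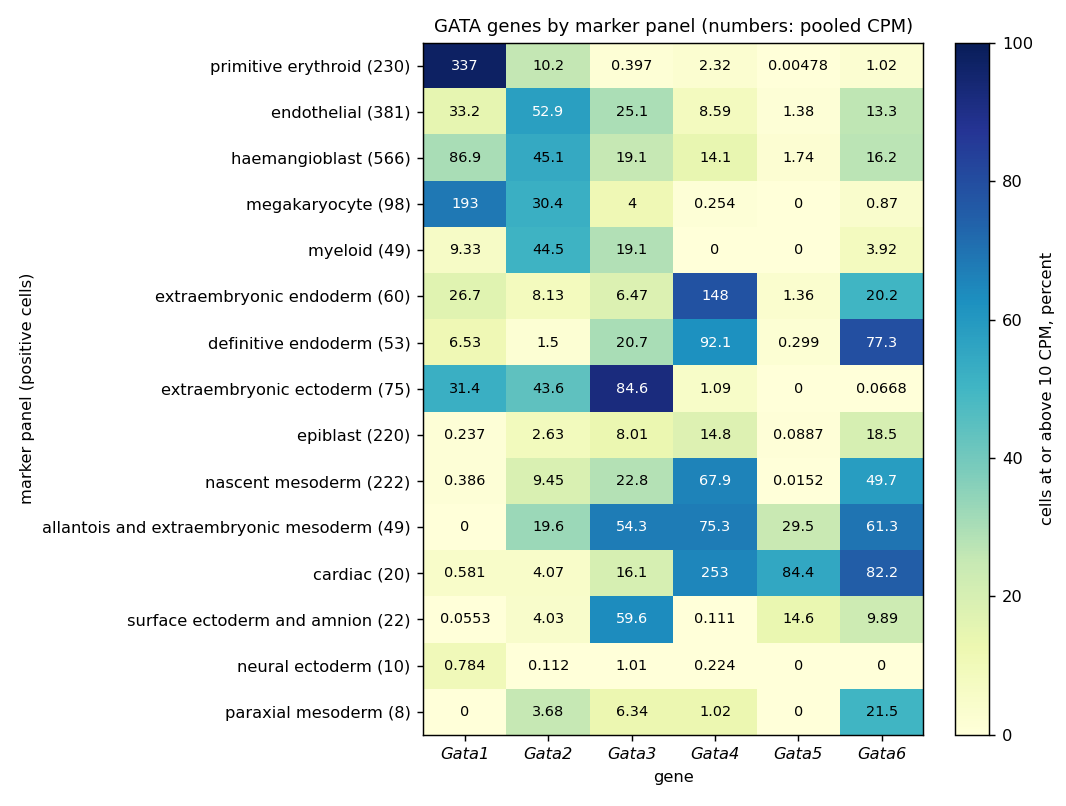
The 6 GATA members (x axis) in cells positive for each of 15 marker panels (y axis, number of cells in brackets). Colour gives the percent of cells at 10 CPM or more and the printed number the pooled CPM. Gata1 peaks in the erythroid panel (336.9 CPM), Gata2 in the endothelial panel (52.9 CPM), Gata3 in extraembryonic ectoderm (84.6 CPM), and Gata4, Gata5 and Gata6 in the cardiac panel (252.9, 84.4 and 82.2 CPM).

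The exchange of Gata2 for Gata1 was followed along globin content in cells positive for the erythroid, endothelial, haemangioblast, megakaryocyte or myeloid panel. Globin was the sum of 7 genes, 3 alpha-like and 4 beta-like. Gata1 detection in these cells was higher at each step of globin. It was 6.86% of cells (4.18 to 10.5) under 10 CPM of globin, 10.9% (6.06 to 17.5) from 10 to 100 CPM and 33.96% (21.5 to 48.3) from 100 to 1000 CPM. It then stood at 83.3% (68.6 to 93.03) from 1000 to 10000 CPM, 98.3% (93.9 to 99.8) from 10000 to 100000 CPM and 100% (96.6 to 100) above. The value from 100 to 1000 CPM depended on the cells taken, at 16.8% with all kept cells and 14.3% without megakaryocyte-panel and myeloid-panel cells. With all kept cells the 2 lowest bins stood at 7.43% and 7.23%, so the second was not higher than the first. In all 3 sets of cells the widest gap lay between this bin and the next, where detection was 83.3% with all kept cells and 71.4% without the megakaryocyte and myeloid panels.

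Pooled over plates, Gata2 detection among blood-panel and vessel-panel cells was lower at higher globin. It was 57.8%, 56.6% and 50.9% in the 3 lowest globin bins, 38.1% and 39.1% in the next 2, and 7.55% in the highest. With all kept cells in place of these panels the fall from the lowest bins was not seen. Gata2 was then found in 26.2%, 37.9%, 27.4%, 38.1% and 38.8% of cells in the first 5 bins and again in 7.55% in the highest. Its pooled level in blood-panel and vessel-panel cells was 49.95 CPM in the lowest bin, 14.8 CPM from 10000 to 100000 CPM and 2.95 CPM in the highest. Gata1 climbed over the same bins through 15.98, 18.7, 111.1, 274.7, 332.2 and 352.1 CPM. Past 1000 CPM of globin the Gata2 level was lower in each further bin. These levels count globin reads in the total, and median globin was 211183 CPM in the highest bin. Globin made up as much as 37.6% of a cell's reads, so CPM of all other genes is lowered at high globin. Cells with Gata2 and no Gata1 made up 53.8%, 50.4%, 33.96%, 2.38%, 0% and 0%. Cells with both made up 3.97%, 6.202%, 16.98%, 35.7%, 39.1% and 7.55%, so both were most often seen together between 1000 and 100000 CPM of globin. On the log2 scale the Gata1 over Gata2 ratio per length was -0.50, -0.44, 2.64, 4.29, 5.63 and 8.05.

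**Figure D3:**
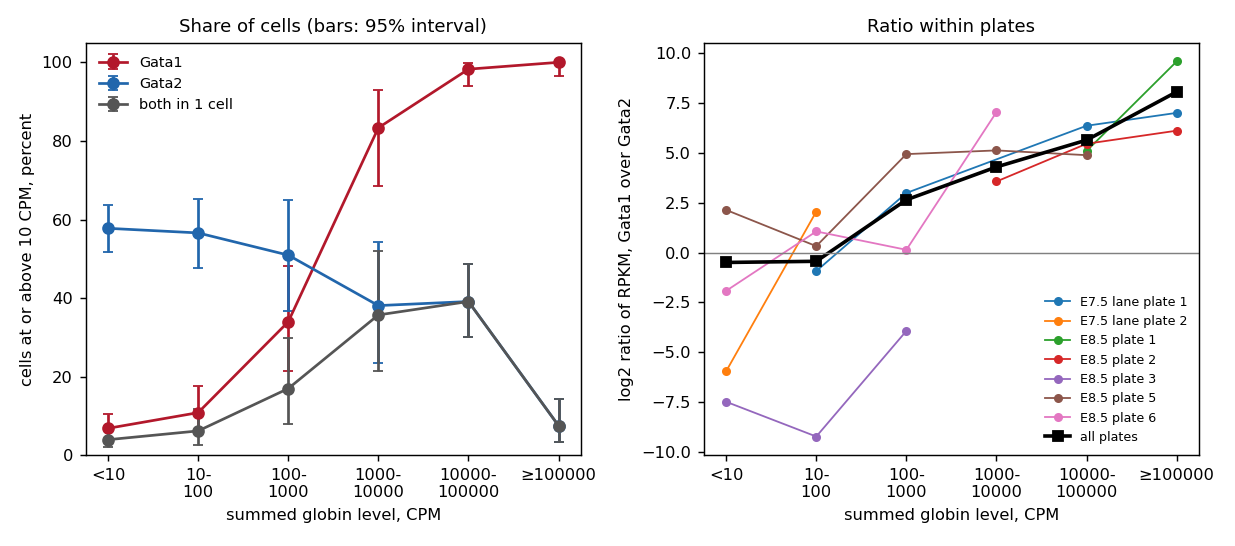
Over 6 bins of summed globin CPM (x axis, log-spaced bins), the left plot gives the percent of blood-panel and vessel-panel cells with Gata1, Gata2 or both (bars, 95% intervals), and the right plot the log2 ratio of RPKM, Gata1 over Gata2, for each plate and for all plates (black). Gata1 detection goes from 6.86% to 100%, Gata2 from 57.8% to 7.55%, and the share of cells with both is highest, 39.1%, from 10000 to 100000 CPM.

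The plates that made up these bins were not alike. Lane plate 1 spanned most of the range by itself, with log2 ratios of -0.93, 2.98, 6.35 and 6.99 over the 4 bins that held at least 5 of its cells. E8.5 plate 1 went from 5.09 to 9.57 between its 2 bins, and plate 2 from 3.56 through 5.45 to 6.10 over 3. E8.5 plate 5 already held Gata1 in 7 of 25 cells (28%) under 10 CPM of globin. Gata2 detection did not fall steadily there, at 56%, 65%, 60%, 44.4% and 66.7% from the lowest bin up to 100000 CPM. Its log2 ratios over these bins were 2.13, 0.32, 4.93, 5.11 and 4.88. Plate 6 did not rise steadily either, with ratios of -1.92, 1.06, 0.14 and 7.03 up to 10000 CPM. E8.5 plate 3 held Gata1 in 0 of 77 cells with up to 1000 CPM of globin, and its ratio stayed at -3.93 or lower.
At 100 to 1000 CPM of globin Gata1 detection was 50% on lane plate 1, 0% on E8.5 plate 3, 100% on plate 5 and 21.7% on plate 6, from 10, 6, 5 and 23 cells. The same globin level thus went with different Gata1 detection from plate to plate. The plate, the cell types it holds and the unlabelled genotype of its cells cannot be told apart here. In its other chimaera data the study named Gata1 and Gata2 among genes differing between Tet-TKO and host blood progenitors and erythroid cells. It also found fewer erythroid cells among Tet-TKO cells. Without E8.5 plate 1, Gata2 detection in the highest bin was 14.3% in place of 7.55%.

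Cells of different panels also differed within a bin. Among megakaryocyte-panel cells Gata1 was detected in 6 of 16 cells under 10 CPM of globin (37.5%) and in 76.5% of 17 cells from 100 to 1000 CPM. Myeloid-panel cells detected it in 5.56% of 18 and 0% of 4 cells in those bins. Over all blood-panel and vessel-panel cells Spearman's rho with globin was 0.76 for Gata1 and -0.35 for Gata2. This is a description over cells that share plates and depth.

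Co-detection was counted for all 15 pairs of members. Gata4 with Gata6 was the most frequent pair, in 16.3% of cells (14.6 to 18.2). That was 63.4% of cells with Gata4 and 53.3% of cells with Gata6, and 2.07 times the product of the single shares. The ratio exceeded 1 on 13 of 13 plates where the product of the single shares gave at least 2 cells, from 1.10 to 3.44. Plate counts of the other pairs use the same limit. Within single panels it came down to 1.17 in nascent mesoderm (100 cells), 1.03 in definitive endoderm (27 of 53), 1.19 in extraembryonic endoderm (28 of 60) and 1.03 in the cardiac panel (10 of 20). Of 60 cells with Gata5, 42 also held Gata4 and 42 held Gata6 (70% each).

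Pairs across the branches were rare with Gata1. Gata1 with Gata6 was seen in 16 cells (0.970%), 0.142 times the product of the shares. Its ratio was below 1 on all 7 plates where the product gave at least 2 cells. Gata1 with Gata4 was seen in 21 cells, at 0.222 times the product. Gata3 crossed the branches more often, with Gata6 in 11.5% of cells (1.22 times the product, above 1 on 9 of 13 plates) and with Gata4 in 10.4% (1.31 times, 10 of 14 plates). Gata2 with Gata6 and Gata2 with Gata4 stood near the product, at 1.02 and 0.936 times. Within the haematopoietic branch, Gata2 with Gata3 was found in 11.4% of cells (1.32 times the product, above 1 on 12 of 15 plates). Gata1 with Gata2 was found in 7.52% (1.21 times), but the ratio was above 1 on only 4 of 7 plates, from 0.365 to 1.78 with a median of 1.02. Gata1 with Gata3 was found in 3.27%, at 0.476 times the product and above 1 on 2 of 7 plates. Without E8.5 plate 2, the share with Gata1 and Gata2 was 5.65%. Gata1 alone was the commonest single state of the family, in 12.7% of cells, ahead of Gata3 alone (8.13%), Gata4 with Gata6 and no other member (7.22%) and Gata6 alone (5.58%).

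**Figure D4:**
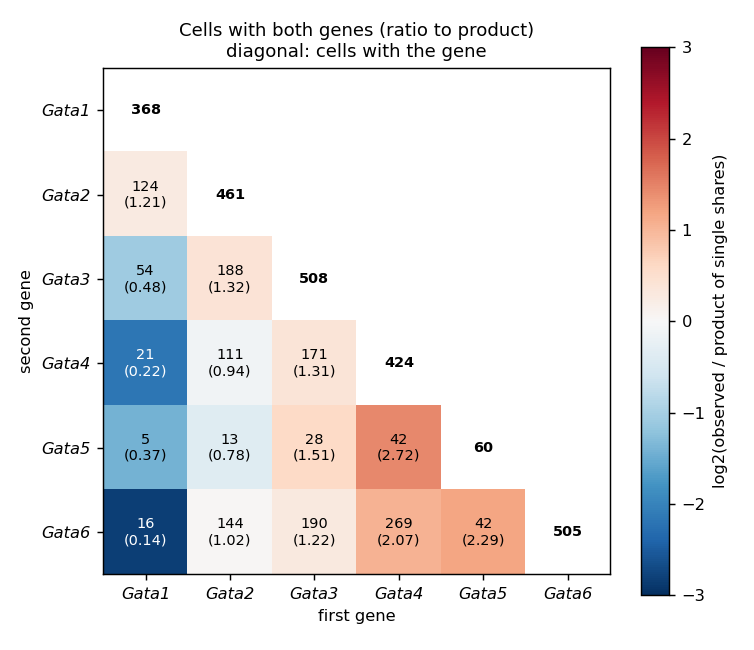
Number of cells with both members of each of the 15 pairs over 1649 cells, with the ratio to the product of the single shares in brackets, also as colour on a log2 scale. The diagonal gives the cells with each member. Gata4 with Gata6 stands at 2.07, Gata4 with Gata5 at 2.72 and Gata1 with Gata6 at 0.142.

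The numbered embryos gave the single comparison with animals as replicates. Cells positive for the nascent mesoderm panel (33, 30, 9 and 11 in embryos 1, 2, 4 and 5) were set against cells positive for the epiblast panel (32, 37, 10 and 9), with reads summed for each embryo and class. Gata6 was at 47.1, 65.4, 61.5 and 81.4 CPM in nascent mesoderm and at 8.22, 10.01, 7.35 and 3.88 CPM in epiblast. It rose by a log2 fold change of 3.09 (SE 0.35, edgeR quasi-likelihood test with embryo as a block, adjusted p = 0.00649, higher in 4 of 4 embryos). The study's limits were a log2 change of at least 1 in size and a 1% false discovery rate. At these, 1 member of 4 tested was called, while 1.32% of all 14184 genes were called (0.55% higher and 0.768% lower). The genes of both panels, which set the classes, are among those fitted. The call rested on all 4 embryos, since leaving out embryo 1, 2, 4 or 5 gave adjusted p from 0.0125 to 0.0310.

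Gata4 stood at 77.8, 81.2, 147.2 and 185.99 CPM in nascent mesoderm against 5.40, 7.26, 26.8 and 0 CPM in epiblast. The difference did not pass the limits (log2 fold change 3.94, SE 0.81, edgeR adjusted p = 0.0433). Gata3 was at 21.04, 13.7, 17.4 and 22.1 CPM against 9.71, 4.65, 8.78 and 7.99 CPM and was not called (log2 fold change 1.27, SE 0.33, edgeR adjusted p = 0.0804). Gata2 values of the 2 classes overlapped across embryos, at 15.1, 4.94, 14.8 and 11.1 CPM against 0.483, 4.59, 2.86 and 7.76 CPM. Gata2 was not called (log2 fold change 1.81, SE 0.94, edgeR adjusted p = 0.349). Within embryos, Gata2, Gata3 and Gata4 were each higher in nascent mesoderm in 4 of 4. Gata1 and Gata5 were too low to be tested. On simulated counts of this design, 41 of 50 genes changed by 4 on the log2 scale and 35 of 50 changed by 3 were called, so a missed call does not show equal levels.

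**Figure D5:**
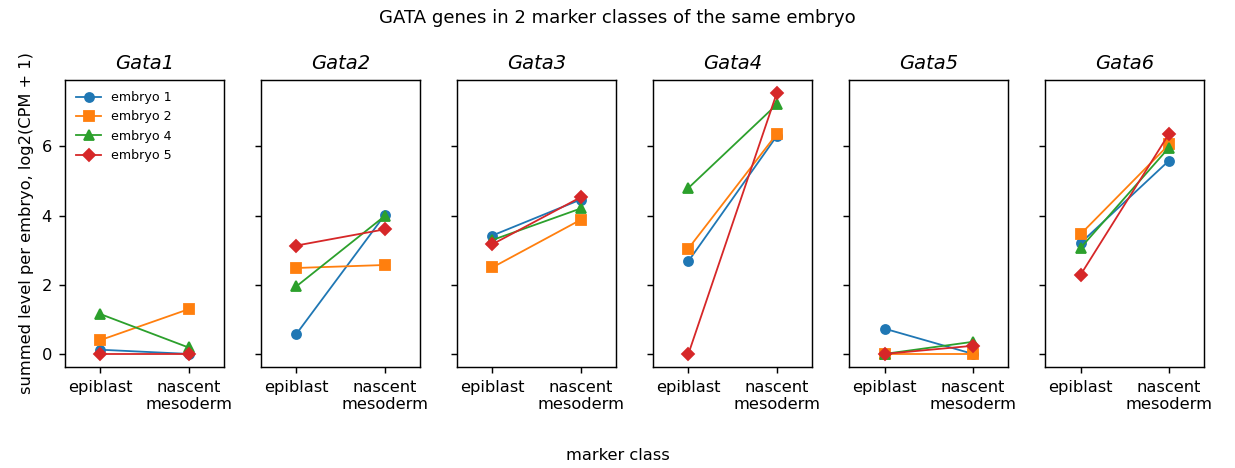
Levels of the GATA members, as log2(CPM + 1) of reads summed for each embryo and class, in epiblast-panel and nascent-mesoderm-panel cells (x axis) of E7.5 embryos 1, 2, 4 and 5, with a line for each embryo. Gata6 runs from 47.1 to 81.4 CPM in nascent mesoderm and from 3.88 to 10.01 CPM in epiblast.

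Extraembryonic endoderm could not be tested, as only embryos 4 and 5 held enough cells. In that panel Gata4 was detected in 12 of 12 cells of embryo 4 (390.7 CPM) and 10 of 13 cells of embryo 5 (160 CPM), with Gata6 at 21.9 and 33.8 CPM. Definitive-endoderm-panel cells of embryos 1, 2, 4 and 5 held Gata6 at 80.6, 89.9, 55.2 and 32.1 CPM and Gata4 at 46.6, 54.01, 302.96 and 148.9 CPM. Gata6 was higher in embryos 1 and 2 than in 4 and 5, and Gata4 lower, with 4 embryos and no test. The class was not of like make-up, since 4 of 7 of these cells in embryo 4 and 9 of 11 in embryo 5 were also extraembryonic-endoderm-panel positive, against 0 in embryos 1 and 2. Without them 3 and 2 cells were left in embryos 4 and 5, with Gata4 at 71.4 and 188.01 CPM and Gata6 at 61.3 and 15.8 CPM.

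Known partners and targets were followed as lists. Of 16 GATA partners, such as Zfpm1, the LIM adaptor Lmo2, the bHLH factor Tal1 and the cardiac factors Tbx5 and Hand2, 11 stood at 10 CPM or more in erythroid-panel cells. In haemangioblast-panel cells 12 of 16 did, in cardiac-panel cells 9 and in nascent-mesoderm-panel cells 4. The haemangioblast panel shares Tal1, Lmo2 and Fli1 with this list, the cardiac panel Nkx2-5 and Mef2c, and the erythroid panel Klf1. Those counts are therefore partly set by the choice of cells. All 12 erythroid genes with known GATA1 sites reached 10 CPM in erythroid-panel cells (median 522.5 CPM), though 5 of them are also genes of that panel. All 12 also did in extraembryonic-endoderm-panel cells (median 52.1 CPM), some of which were erythroid-panel positive, as did 11 in haemangioblast-panel and 10 in megakaryocyte-panel cells. In the Gata1-detecting extraembryonic ectoderm panel 2 of 12 did, the transferrin receptor gene Tfrc and Zfpm1 (median 0.512 CPM). Of 12 endoderm genes downstream of GATA4 and GATA6, all 12 reached 10 CPM in extraembryonic-endoderm-panel cells (median 68.2 CPM), 10 in definitive endoderm (60.2 CPM, a panel that shares Sox17 and Foxa2 with the list) and 6 in epiblast. Outside endoderm, 8 genes did so in endothelial-panel cells (64.7 CPM), in haemangioblast-panel cells (48.96 CPM) and in allantois-panel cells (21.8 CPM). Over all 41920 genes with reads, 18.7% to 21.8% reached 10 CPM in each of these panels.

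In the test of nascent mesoderm against epiblast, 0 genes of the 3 lists were called by edgeR. Over all 14184 genes tested, 20.5% had an unadjusted p under 0.05 in edgeR and DESeq2 called 8.26%. Of 10 partners tested, 3 had an unadjusted p under 0.05, all higher, and DESeq2 called 2. Their median log2 fold change was 1.72, beside -0.01 over all genes tested. Tbx20, a cardiac T-box factor, had a log2 fold change of 3.04 (SE 0.43, edgeR adjusted p = 0.013). Of 8 endoderm genes tested, 4 had an unadjusted p under 0.05, 3 of them higher, DESeq2 called 4, and the median was 0.28. Foxa2, a definitive endoderm marker, stood at a log2 fold change of -3.11 (SE 0.87, edgeR adjusted p = 0.0999), so the epiblast-panel class held more of it, and its part in the member values was not tested. Of 4 erythroid genes tested, 2 had an unadjusted p under 0.05, 1 higher, DESeq2 called 0, and the median was -0.36.

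Genes whose levels over the 1649 cells ran most like each member were ranked by Pearson's r of log2(CPM + 1), a description over cells that share plates. Gata1 had by far the closest, among them Cited4 (0.857) and Mfsd2b (0.813). Gata2 ran most like Fli1 (0.467), an ETS factor of vessel and blood, Esam (0.433) and Eng (0.433), both endothelial surface proteins. For Gata3 these were Id2 (0.445), Bmp4 (0.432) and Msx2 (0.404). Gata4 and Gata6 shared Prdm6, with r of 0.576 and 0.467. Tbx3 (0.545) and Cfc1 (0.517) came next for Gata4, and Nrp1 (0.477) stood first for Gata6. Gata5 was nearest to Nebl (0.353), Myl4 (0.330) and Tnnt2 (0.323), the last 2 of which encode proteins of the contractile apparatus.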

How the data were processed

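Smart-seq2 RNA libraries, without molecular identifiers, were made from single cells, and the study made methylation libraries from part of the cells. The authors deposited raw read counts for each gene and cell, made from single-end reads of 75 bases with HISAT2 2.1.0 on GRCm38 and featureCounts with an Ensembl annotation. Settings for strand and multi-mapping are not given in the sources used here. All columns matched 1 cell each, leaving 0 columns without a sample, and 55141 of 55487 genes had a symbol. Of overlapping genes, 4930412O13Rik (Gata3) held 257 reads and Gata5os (Gata5) 143, the latter beside 4328 of Gata5.

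Cells with at least 100000 reads were kept, 956 at E7.5 and 693 at E8.5. The largest panels held 566 (haemangioblast), 381 (endothelial), 230 (erythroid), 222 (nascent mesoderm) and 220 (epiblast) cells, and 582 cells were positive for more than 1 panel. The exchange used 722 cells, 277, 129, 53, 42, 115 and 106 over the globin bins. Detection was 10 CPM, and a panel was positive with 4 of 6 genes at 10 CPM. The members, panels and lists were chosen with earlier results of these data known. Genes named were the members, the lists, panel genes bearing on a class, and for each member the 3 genes with the highest Pearson's r among genes at 10 CPM in at least 5% of cells, of which 1 is not reported here. Intervals on shares are 95% Clopper-Pearson intervals and carry counting error alone, as reads copied by PCR do not count molecules. Where no cell was positive, the limit is 3 cells of the total. Cells were sorted as singlets and no doublet caller was run.

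Classes were tested within the 4 numbered embryos (cells positive for exactly 1 of the 2 panels) with edgeR 4.0.16 under R 4.3.3 and the embryo as a block. The pairing comes from the labels, both classes being cells of the same animal. Its limits were a false discovery rate of 1% and an absolute log2 fold change of 1, and p-values rest on 4 embryos. The planned tests of extraembryonic endoderm needed 3 embryos with 5 cells of both classes and were not run. On simulated counts of the mesoderm comparison (13662 genes), 10, 22, 35 and 41 of 50 genes changed by 1, 2, 3 and 4 on the log2 scale were called, with 2 false calls. DESeq2 1.42.0 was an alternative. Python 3.11.15, scipy 1.17.1 and pandas 2.3.3 were used. Promoters were RefSeq windows of GRCm38.p6.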

Additional observations from a re-analysis of the deposited data

Results flagged for a closer look

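Of 34 sets of 4 embryo values examined, 1 held a value far from the rest, where chance alone flags about 1 in 20 sets. Gata3 was detected in 7.5% of epiblast-panel cells of embryo 1 (3 of 40 cells), against 15.2% to 16.7% in embryos 2, 4 and 5. The gap was 0.842 of the range, past Dixon's 95% critical value for 4 samples.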

How the results depend on the processing

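Over 26 results, 34 alternatives moved a value, 5 lost a call, 2 gained one and 0 reversed the direction of a called change. The others kept their call or stayed within the limits set for a value. Direction was not part of the label for values with no test, and the Gata6 ratio of stages changed sign, as given below. Detection moved most with its own limit. Counting any read in place of 10 CPM gave 70.9% for Gata2 in endothelial-panel cells, 97.3% for Gata3 in extraembryonic ectoderm, and co-detection of 22.2% for Gata4 with Gata6, 11.9% for Gata1 with Gata2 and 2.73% for Gata1 with Gata6. A limit of 50 CPM gave 34.6%, 65.3%, 7.22%, 2.61% and 0.121% for the same results, with 21.3% for Gata1 in extraembryonic ectoderm and 49.1% for Gata6 in definitive endoderm. Asking for 3 panel genes gave Gata1 in 75.2% of erythroid-panel cells, Gata4 in 63.3% of extraembryonic endoderm and Gata6 in 65.4% of definitive endoderm. Asking for 5 gave 100% for Gata1 in erythroid-panel cells, 78.3% for Gata1 and 82.6% for Gata3 in extraembryonic ectoderm. Cells positive for 1 panel only gave 100% (Gata1, erythroid), 41.7% (Gata2, endothelial) and 96.4% (Gata4, extraembryonic endoderm). Thinning to 100000 reads gave 62.7% for Gata2 in endothelial-panel cells. In the exchange, all kept cells in place of blood and vessel panels gave 26.2% for Gata2 under 10 CPM of globin and 16.8% for Gata1 at 100 to 1000 CPM, which was 14.3% without megakaryocyte-panel and myeloid-panel cells.

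In nascent mesoderm against epiblast, 1.32% of 14184 genes were called with the embryo as a block, 2.53% with no replicate block, 8.26% by DESeq2 (1172 genes), 1.498% of 32381 genes with no filter on low counts, and 0.0139% with 3 panel genes (2 genes). Without 1 embryo it was 0.159% (embryo 1, 20 genes), 0.326% (embryo 2), 0.568% (embryo 4) or 0.314% (embryo 5). The causes were not tested, though leaving out an embryo leaves fewer samples. Gata6 (log2 fold change 2.75 to 3.30 without 1 embryo) lost its call each time, and with 3 panel genes (4.25, adjusted p = 0.0236, edgeR). DESeq2 called Gata3 (adjusted p = 0.00486), and edgeR with no filter called Gata4 (adjusted p = 0.00281). Without 1 plate, Gata1 with Gata2 ranged from 5.65% to 7.94%. The log2 ratio of stages for Gata6 lay near 0 and was 0.14 without E8.5 plate 1 and 0.032 as a mean over cells, in place of -0.14.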
